A study of Mus musculus with 6 samples.

Results

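The colony-stimulating factors and their receptors were read in RAW 264.7 cells, a mouse macrophage line, with the members taken as the 8 rows of the deposited gene table whose symbol was Csf1, Csf2, Csf3, Csf1r, Csf2ra, Csf2rb, Csf2rb2 or Csf3r, of 50599 genes in all. The cells of both groups carried a retroviral ∆Raf-1:ER construct, an oncoprotein that 4-hydroxytamoxifen (4-OHT) switches on, and were a population kept through 7 days of hygromycin B (70 µg/mL). One group of 3 samples was given ethanol vehicle, and the other group of 3 samples was given 100 nM 4-OHT. All were collected on day 3 of induction, after 24 hours without serum, and the series' design text calls the 4-OHT cells senescent. No sample without the construct was given 4-OHT, so an effect of the drug cannot be told apart from an effect of the oncoprotein.

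Colony-stimulating factors are secreted proteins that keep myeloid cells alive and direct their growth and maturation. CSF1 (M-CSF) acts through the receptor tyrosine kinase CSF1R, on which most macrophages depend. CSF2 (GM-CSF) binds an alpha chain, encoded by Csf2ra, that pairs with a common beta chain, and CSF3 (G-CSF) acts through CSF3R, best known from neutrophils. Mice have a pair of beta chain genes, Csf2rb, whose product serves the receptors for GM-CSF, interleukin-3 and interleukin-5, and Csf2rb2, whose product serves interleukin-3.

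The libraries held 11629150 to 15943722 reads. The 3 ligand genes were all higher with 4-OHT in every sample than in any vehicle sample, Csf3 by 68.1-fold, although Csf2 stayed at a few reads. Among the 5 receptor chains both beta chain genes rose, Csf2rb2 by 4.59-fold and Csf2rb by 3.51-fold, while Csf1r fell to a level 1.64-fold lower and Csf3r to one 1.76-fold lower. The alpha chain gene Csf2ra was 1.28-fold higher, a call that depended on scaling. Of the 7 members with enough reads to be tested by limma with Benjamini-Hochberg adjustment over 11828 genes, 5 were called higher and 2 lower at an adjusted p of 0.05. Calls were common in this comparison: 65.5% of all tested genes were called, 33.0% higher and 32.5% lower. At least 2-fold rises were called in 4 of the 7 tested members and in 10.1% of all tested genes. Among these 4, Csf3 had enough reads to be tested only through its 4-OHT libraries. At least 2-fold falls were called in none of the members and in 2.87% of all tested genes. The groups did not overlap in any of the 7 tested members, nor in 70.7% of all tested genes. They did not overlap in the untested Csf2 either. The labels do not say that the samples were separate cultures, so each p-value reflects the spread among these 6 samples, which may be technical.

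**Figure D1:**
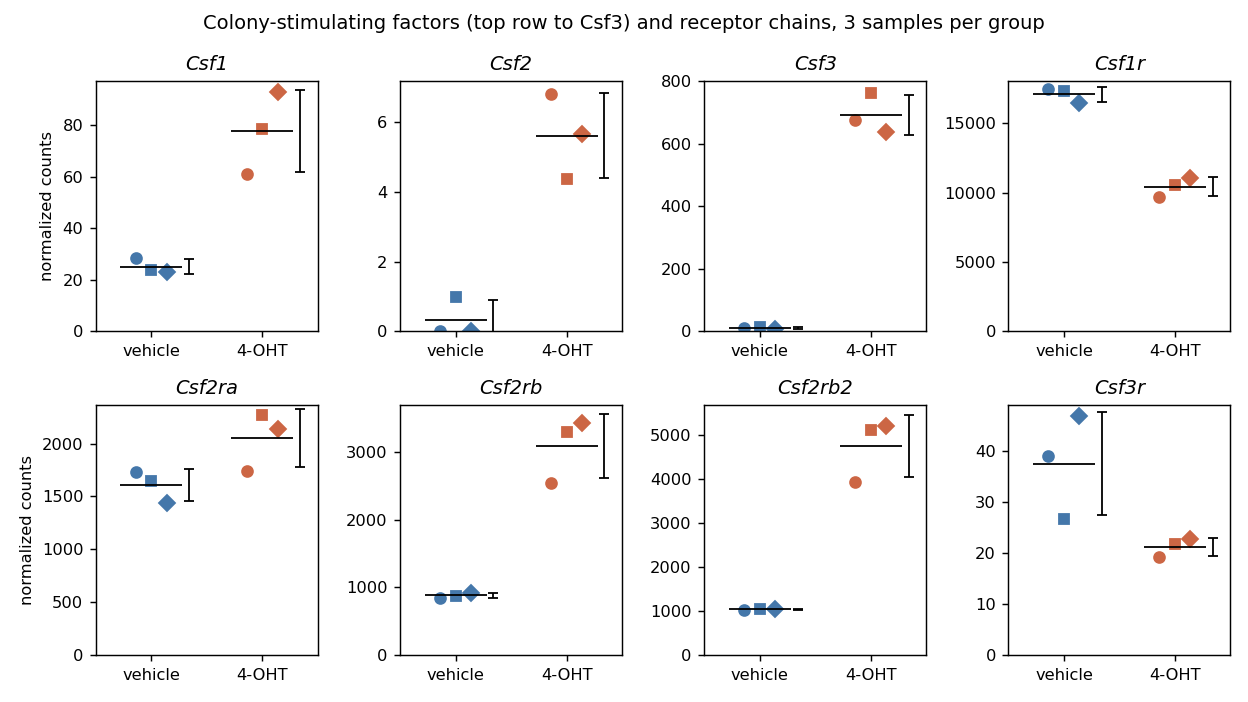
Normalized counts (gene counts divided by a size factor of the library) of each member in the 3 vehicle samples (blue) and the 3 4-OHT samples (orange), with circles, squares and diamonds for replicates A, B and C, the group mean as a line and the SD as a bar. No vehicle sample overlaps a 4-OHT sample in any panel, and Csf1r and Csf3r are the panels in which vehicle lies above 4-OHT.

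Csf3 (ENSMUSG00000038067.2, chromosome 11, 98701263 to 98703629, GRCm38/mm10) encodes G-CSF, the factor that drives neutrophil production. Vehicle replicates A, B and C held 9.75, 12.9 and 7.93 normalized counts of it, which stand for 10, 13 and 11 reads. With 4-OHT it was read at 676, 763 and 639 normalized counts, from 597, 699 and 564 reads. The vehicle samples were all near the limit of detection and the 4-OHT samples lay close to one another. The vehicle mean was 10.2 ± 2.49 and the 4-OHT mean 693 ± 63.8 (normalized counts, SD, n = 3). On the scale of log2(normalized count + 1) Csf3 rose by 5.98 ± 0.16 (SE, limma adjusted p = 1.64e-10). This change lay at percentile 99.5 of all tested genes. With only 34 vehicle reads the fold itself is imprecise, and the ratio of reads per size factor was 69.9, with a 95% exact binomial interval of 49.8 to 101 that covers counting error only. Csf3 reached the low-count filter in 2 vehicle libraries, where 3 libraries were needed. It was therefore tested through its 4-OHT reads, and its p is not to be read as support.

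Csf1 (ENSMUSG00000014599.10, chromosome 3, 107741048 to 107760469) encodes M-CSF. Its vehicle samples were at 28.3, 23.7 and 23.1 normalized counts, and its 4-OHT samples at 61.2, 78.6 and 92.9. Every 4-OHT sample stood above the highest vehicle sample, with 4-OHT replicate A the lowest of its group. Csf1 rose 3.10-fold, its mean going from 25.02 ± 2.83 to 77.6 ± 15.9, or by 1.58 ± 0.19 on the log2 scale (SE, limma adjusted p = 2.31e-05). The counts behind it were low, 85 reads over the vehicle group and 208 over the 4-OHT group.

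Csf2 (ENSMUSG00000018916.5, chromosome 11, 54247271 to 54249667) encodes GM-CSF. Vehicle replicates A, B and C held 0, 1 and 0 reads of it, and the 4-OHT replicates 6, 4 and 5. It did not reach the low-count filter in any library and was not tested. The ratio over the groups was 19.2, with a 95% exact binomial interval from 2.95 to 807 that covers counting error only. Every 4-OHT sample held more reads than any vehicle sample, but these reads hardly set the size of the change. In the authors' deposited table its log2 fold change was 4.14 with an adjusted p of 0.0153. An antisense gene, Gm12223, overlaps Csf2 and had 0 reads in all libraries.

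Il34, which encodes a second ligand of CSF1R and is no member, had a mean of 6.67 ± 2.23 normalized counts in vehicle and 22.4 ± 1.44 with 4-OHT, from 22 and 60 reads. It reached the low-count filter in 0 vehicle libraries and was tested only through its 4-OHT reads, so its p is not given as support. Il3, whose receptor uses the beta chains, and the alpha chain gene of that receptor, Il3ra, were listed at 0 reads in all 6 libraries, and Il5 had 1 vehicle read and 3 reads with 4-OHT.

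Csf1r (ENSMUSG00000024621.15, chromosome 18, 61105572 to 61132149) encodes the receptor of CSF1 and IL-34. The vehicle replicates held 17497, 17347 and 16445 normalized counts of it in the order A, B, C, and the 4-OHT replicates 9685, 10552 and 11075. The lowest vehicle sample stood well above the highest 4-OHT sample, and the spread within each group was small. Its mean fell from 17096 ± 569 to 10437 ± 702. On the log2 scale this was -0.71 ± 0.07 (SE, limma adjusted p = 2.56e-06), with a 95% interval of -0.86 to -0.57. That is percentile 8.47 of all tested genes, and the change was -1.02 when values were scaled to the library total. In bulk RNA, fewer cells that carry a transcript and less of it per cell cannot be told apart. Hmgxb3 overlaps Csf1r on the opposite strand and changed the other way, by 0.38 on the log2 scale (511 ± 34.9 in vehicle and 665 ± 45.6 with 4-OHT), or by 0.071 when scaled to the library total. How the authors' counting treated strands is not given in the sources used here.

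Csf3r (ENSMUSG00000028859.14, chromosome 4, 126024550 to 126044440), the G-CSF receptor gene, was read at 39.0, 26.7 and 46.9 normalized counts in vehicle samples and at 19.3, 21.8 and 22.7 with 4-OHT. Vehicle replicate B came closest to the 4-OHT samples, without overlapping them. The mean was 37.5 ± 10.2 in vehicle and 21.3 ± 1.78 with 4-OHT, which is -0.76 ± 0.23 on the log2 scale (SE, limma adjusted p = 0.0138). The call rested on few reads, 132 and 57 over the groups, and was lost without vehicle replicate A (adjusted p = 0.0506) or vehicle replicate C (adjusted p = 0.0751). In the authors' deposited table its adjusted p was 0.0535. Of its 75-base transcript words 2.95% also occur in other annotated genes, as do 10.5% of its 50-base words, and reads there are uncertain. The ligand gene Csf3 and the receptor gene Csf3r moved in opposite directions in these samples.

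**Figure D2:**
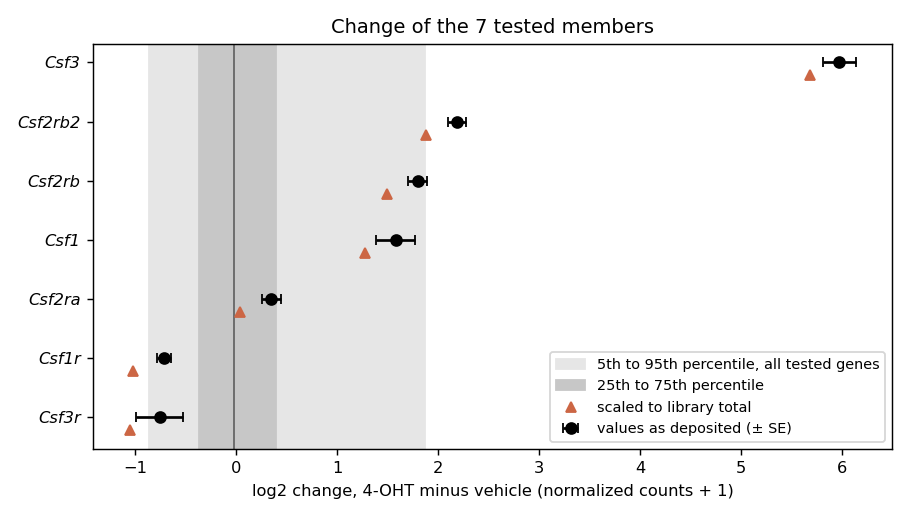
Log2 change of the 7 tested members, 4-OHT minus vehicle, with black points and SE bars for the deposited values and orange triangles for values scaled to the library total; grey bands span the 5th to 95th and 25th to 75th percentiles of all tested genes. Csf3 at 5.98 and Csf2rb2 at 2.19 lie beyond the upper band limit of 1.87, and Csf2ra moves from 0.35 to 0.042 with the scaling.

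Csf2ra (ENSMUSG00000059326.6, chromosome 19, 61224402 to 61228418) encodes the alpha chain, which gives the GM-CSF receptor its specificity. It was at 1734, 1642 and 1440 normalized counts in vehicle samples and at 1744, 2270 and 2135 with 4-OHT. The highest vehicle sample and the lowest 4-OHT sample, both replicate A, were nearly equal. The mean went from 1605 ± 150 to 2049.8 ± 273, or by 0.35 ± 0.09 on the log2 scale (SE, limma adjusted p = 0.00697). Scaling to the library total moved the median of all genes by -0.31, and Csf2ra then changed by 0.042 and was not called (limma adjusted p = 0.650). No other tested member lost its call under that scaling, which left 4 members higher and 2 lower where 19.1% of all tested genes were higher and 55.4% lower.

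Csf2rb2 (ENSMUSG00000071714.5, chromosome 15, 78282517 to 78305603) and Csf2rb (ENSMUSG00000071713.4, chromosome 15, 78325990 to 78351000) lie 20.4 kb apart on opposite strands. Csf2rb2 was at 1016, 1043 and 1049.5 normalized counts in vehicle samples and at 3941, 5119 and 5210 with 4-OHT. Its mean went from 1036 ± 17.6 to 4757 ± 708, a rise of 2.19 ± 0.09 on the log2 scale (SE, limma adjusted p = 3.82e-09). Csf2rb was at 847, 877 and 919 in vehicle samples and at 2547, 3302 and 3426 with 4-OHT. Its mean of 881 ± 36.3 became 3092 ± 476, a rise of 1.80 ± 0.09 on the log2 scale (SE, limma adjusted p = 2.49e-08). In both genes the vehicle samples lay close together, and 4-OHT replicate A was the lowest of the 4-OHT samples.

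The pair are close copies, so reads can be shared between them. Their longest annotated coding sequences in GENCODE M21, of 2688 and 2634 bases, were identical at 95.2% of 2628 aligned bases. The stretch below, from chr15:78338810-78338899 on the plus strand (Csf2rb) and chr15:78294432-78294521 on the minus strand (Csf2rb2), shows what separates a typical 90-base piece. It is the first window within a single exon of each gene whose number of differing bases, 2, was the median over 1310 such windows, which ranged from 0 to 16. Capitals mark the bases that differ.
Csf2rb: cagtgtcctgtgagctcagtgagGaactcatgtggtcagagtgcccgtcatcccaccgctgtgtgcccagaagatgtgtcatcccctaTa
Csf2rb2: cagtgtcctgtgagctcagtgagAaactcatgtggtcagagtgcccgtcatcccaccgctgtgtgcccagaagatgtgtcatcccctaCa
Of all 75-base words of the annotated Csf2rb transcripts, 7.15% also occurred in another gene, and of those of Csf2rb2 10.6%, all of them in the other gene of the pair. With 50-base words the shares were 12.3% and 18.9%. How the authors assigned reads that match both genes is not given in the sources used here. Added together, the pair was at 1863, 1921 and 1969 normalized counts in vehicle samples and at 6488, 8421 and 8637 with 4-OHT. The sum rose 4.09-fold, which is 2.02 ± 0.09 on the log2 scale (SE, limma adjusted p = 7.88e-09). The sum is free of that step only if shared reads were divided between the pair, and not if they were dropped or counted for both genes.

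The levels of the receptor chain genes relative to each other are given as ratios, which rest on how shared reads were assigned and do not describe the chains of a single receptor. Csf2rb2 was 1.20, 1.19 and 1.14 times Csf2rb in the vehicle samples, and 1.55, 1.55 and 1.52 times with 4-OHT. The ratio was 1.18 ± 0.031 in vehicle and 1.54 ± 0.016 with 4-OHT, with no overlap. The summed beta chains were 1.20 ± 0.15 times Csf2ra in vehicle and 3.82 ± 0.19 times with 4-OHT, again with no overlap. Each ratio gave p = 0.1 by a two-sided exact permutation test, the smallest p that 3 samples against 3 allow.

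Levels can be set beside each other between genes only roughly, when divided by exon length. In normalized counts per kb of exon, the order in vehicle samples was Csf1r at 2961 ± 98.5, Csf2ra at 559 ± 52.4, Csf2rb2 at 219 ± 3.71 and Csf2rb at 121 ± 4.98, then Csf3r at 10.4 ± 2.81, Csf3 at 7.20 ± 1.76, Csf1 at 4.74 ± 0.535 and Csf2 at 0.412 ± 0.714. Only Csf3r and Csf3, among neighbours in this order, overlapped in their samples. With 4-OHT, Csf1r was still the highest, at 1808 ± 122 per kb, followed by Csf2rb2 at 1004 ± 149 and Csf2ra at 714 ± 95.1. Csf3 came next, at 490.4 ± 45.2 per kb, its samples overlapping those of Csf2rb at 425 ± 65.4. Csf1 at 14.7 ± 3.01, Csf2 at 7.01 ± 1.52 and Csf3r at 5.89 ± 0.493 per kb closed the order, the last pair overlapping. Against 11814 tested genes with a length, Csf3 went from percentile 10.1 of levels per kb to percentile 89.6, Csf2rb2 from 77.8 to 95.6, and Csf1r from 99.1 to 97.8. Lengths were exon unions of GENCODE M21, and the coordinates of 4 members, Csf1r, Csf2ra, Csf2rb and Csf2rb2, differ there from those in the deposited table, so levels per kb are approximate. A union over all annotated transcripts can exceed the transcripts in use. It was 7277 bases for Csf2rb and 4740 for Csf2rb2, with coding sequences of 2688 and 2634 bases. The gap per kb between that pair rests partly on these lengths and on how shared reads were assigned.

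**Figure D3:**
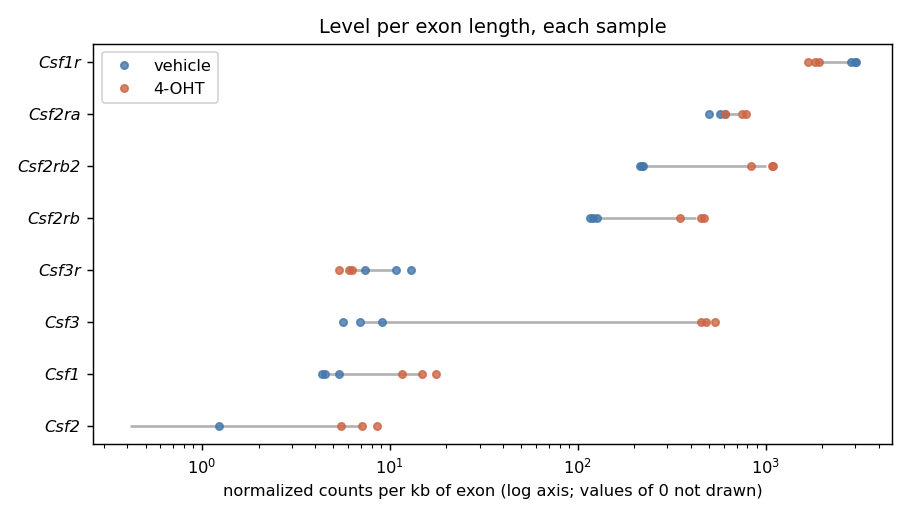
Normalized counts per kb of exon of each member on a log axis, with vehicle samples in blue, 4-OHT samples in orange and a grey line between the group means; samples at 0, both of Csf2 in vehicle, are not drawn. Csf3 crosses from 7.20 to 490.4 per kb, into the range of the receptor chains, while Csf1r stays the highest member in both groups.

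Promoter windows from RefSeq (build GRCm38.p6), from 250 bases before to 50 after the annotated start, were matched for 5 members on chromosomes other than 18: Csf1, Csf2, Csf2ra, Csf2rb2 and Csf3r. Those of Csf3 and Csf2rb were not matched. RefSeq's starts are not always those of the deposited table: the deposited starts of Csf1, Csf2ra and Csf3r lie inside their windows, while the windows of Csf2 and Csf2rb2 lie wholly upstream of the deposited starts. The windows of these 3 receptor chains are shown because they share a word that the Csf1 and Csf2 windows lack. It is the letters GAGGAAG of a PU.1 (Spi1) core on either strand, in capitals. With Csf1r, Csf2rb and Csf3 missing, this does not compare receptors with ligands. The Csf2ra window also holds TGACGTCA, the cyclic AMP response element, in capitals. The windows are chr19:61228369-61228668 on the minus strand, chr15:78305672-78305971 on the minus strand and chr4:126024409-126024708 on the plus strand.
Csf2ra: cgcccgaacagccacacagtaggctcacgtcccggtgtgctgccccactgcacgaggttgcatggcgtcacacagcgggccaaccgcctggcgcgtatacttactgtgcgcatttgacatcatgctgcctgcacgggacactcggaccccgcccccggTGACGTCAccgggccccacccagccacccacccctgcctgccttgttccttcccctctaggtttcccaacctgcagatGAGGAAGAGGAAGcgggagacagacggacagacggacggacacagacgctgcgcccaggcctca
Csf2rb2: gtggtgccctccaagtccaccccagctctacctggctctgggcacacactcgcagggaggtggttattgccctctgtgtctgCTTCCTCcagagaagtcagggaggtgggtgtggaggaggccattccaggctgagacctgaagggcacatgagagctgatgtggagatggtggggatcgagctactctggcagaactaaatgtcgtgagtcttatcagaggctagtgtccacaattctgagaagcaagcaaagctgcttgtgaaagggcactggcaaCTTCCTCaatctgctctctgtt
Csf3r: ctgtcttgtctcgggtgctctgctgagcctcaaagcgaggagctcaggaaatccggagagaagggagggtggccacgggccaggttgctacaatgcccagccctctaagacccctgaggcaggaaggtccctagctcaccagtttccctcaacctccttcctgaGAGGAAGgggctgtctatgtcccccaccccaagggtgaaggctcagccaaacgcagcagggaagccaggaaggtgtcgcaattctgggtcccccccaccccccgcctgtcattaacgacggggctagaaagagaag
GAGGAAG occurred in 13.6% of 32851 promoter windows of the same length, and TGACGTCA, which reads the same on both strands, in 1.79%. The receptor genes with GAGGAAG comprised the rise of Csf2rb2, the fall of Csf3r, which rested on few reads, and the scaling-dependent change of Csf2ra. Whether the word goes with a direction was not tested. The Csf1 window (chr3:107760420-107760719, minus strand) is shown for its match, in capitals and on the opposite strand, to the NF-kB letters GGGA, any base, TT, any base and CC, which 1.20% of windows held.
Csf1: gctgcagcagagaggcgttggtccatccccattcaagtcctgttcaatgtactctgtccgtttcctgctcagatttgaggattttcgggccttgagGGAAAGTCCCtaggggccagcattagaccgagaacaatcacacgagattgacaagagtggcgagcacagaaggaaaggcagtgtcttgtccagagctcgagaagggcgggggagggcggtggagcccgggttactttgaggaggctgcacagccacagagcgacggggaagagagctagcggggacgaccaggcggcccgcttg
The Csf2 window held the C/EBP letters TTNNGCAA, as did 10.8% of windows. None of the 5 windows, which for Csf2 and Csf2rb2 do not cover the deposited start, held the AP-1 letters TGANTCA (7.81% of windows) or TATAAA (13.6%). Spi1 itself, a myeloid transcription factor, fell by 0.18 on the log2 scale, with means of 4502 ± 386 and 3963 ± 129 (limma adjusted p = 0.026). A match is a description of letters and not a site in use.

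Genes that act with the receptors were read from lists, as counts beside the background of all tested genes, whose median log2 change was -0.02. Of all tested genes 33.0% were called higher and 32.5% lower, or 19.1% and 55.4% when scaled to the library total, and each list's counts are to be read against these shares. A few list genes, Cish, Id1, Gab3, Mrc1, Ets1 and Fosb, reached the low-count filter only through their 4-OHT libraries, so the list counts are descriptions. Among 9 kinases, STATs and the phosphatase used by the GM-CSF and G-CSF receptors, 6 were higher, 1 lower and 2 not called, with a median of 0.41, against 4 higher and 3 lower when scaled to the library total. Jak2, the kinase bound to the beta chain, rose 1.93-fold, Stat3, used by CSF3R, 1.69-fold and Jak1 1.62-fold. Stat5a and Stat5b, the main STATs of the beta chain, were not called, at -0.16 and -0.17 on the log2 scale. When scaled to the library total both were called lower, at -0.46 and -0.48.

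Of 10 tested inhibitors of cytokine signalling, 4 were higher, none lower and 6 not called, with a median of 0.18, against 2 higher and 5 lower under total scaling. Socs3, which binds CSF3R and limits its signal, rose 29.7-fold, its mean of 35.04 ± 6.64 becoming 1042 ± 189 (limma adjusted p = 6.16e-10). Cish, a classical STAT5 target that limits beta chain signals, had 2 reads in vehicle and 111 in 4-OHT samples. The ratio was 70.9, with an exact 95% interval of 19.2 to 593. Sh2b3 and Pias3 rose 1.38-fold and 1.20-fold, and were not called under total scaling. Among 12 tested genes known to be induced by GM-CSF or STAT5 in myeloid cells, 10 were higher, 1 lower and 1 not called, with a median of 0.60, against 5 higher and 2 lower under total scaling. Bcl2l1, which encodes the survival protein BCL-XL, rose from a mean of 1208 ± 47.0 to 2414 ± 154, the cytokine gene Osm 2.87-fold, the kinase gene Pim1 1.76-fold and the transcription factor gene Irf4 1.72-fold. Pparg, chosen after its value was seen, fell by 1.02 on the log2 scale.

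On the side of CSF1R, 27 tested adaptors, kinases and phosphatases were divided, with 11 higher, 8 lower and 8 not called and a median of 0.08, against 9 higher and 15 lower under total scaling. Cblb, a ubiquitin ligase of the Cbl family, rose 3.97-fold. Inpp5d, the lipid phosphatase SHIP1 that opposes PI3-kinase, rose 2.59-fold and the kinase Syk 2.39-fold. Ptpn6, the phosphatase SHP-1, fell by 1.28 on the log2 scale, from 3778 ± 35.3 to 1551 ± 2.05 normalized counts. Of 10 tested genes tied to CSF1 or CSF1R in macrophages, 4 were higher, 5 lower and 1 not called, with a median of -0.56, against 3 higher and 6 lower under total scaling. Plau (urokinase) rose 19.6-fold, Egr1 16.4-fold and Ccnd1 (cyclin D1) 1.95-fold, while Cx3cr1, the fractalkine receptor gene, fell by 1.77 on the log2 scale. Among 9 tested factors known to act at Csf1r, 6 were higher and 3 lower, with a median of 0.31, against 3 higher and 3 lower under total scaling. Cebpa fell by 1.51 on the log2 scale, from 158 ± 31.8 to 54.1 ± 3.42 normalized counts. Elk3 and Ets2 rose 2.03-fold and 1.60-fold, and Ets1 had 2 reads in vehicle and 132 in 4-OHT samples (ratio 84.3, exact 95% interval 22.9 to 703).

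Factors known to drive Csf2 and Csf3 transcription were higher in 13 of 19 tested cases, lower in 3 and not called in 3, with a median of 0.32, against 7 higher and 6 lower under total scaling. Jun, a subunit of AP-1, rose 4.67-fold, from 982 ± 36.7 to 4584 ± 99.8 normalized counts, and its partner Fosl1 3.51-fold, beside Egr1 and Ets1. Fos, chosen after its value was seen, fell by 1.03 on the log2 scale. Proteins that bind decay and stability elements of cytokine mRNAs were higher in 7 of 11 cases, lower in 1 and not called in 3, with a median of 0.40, against 3 higher and 5 lower under total scaling. Zfp36 (tristetraprolin), which promotes decay of cytokine mRNAs, rose 3.03-fold and Rc3h1 (roquin-1) 1.87-fold, with Zfp36l2 at 1.40-fold and Rc3h2 at 1.32-fold. Rc3h2 was not called under total scaling.

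**Figure D4:**
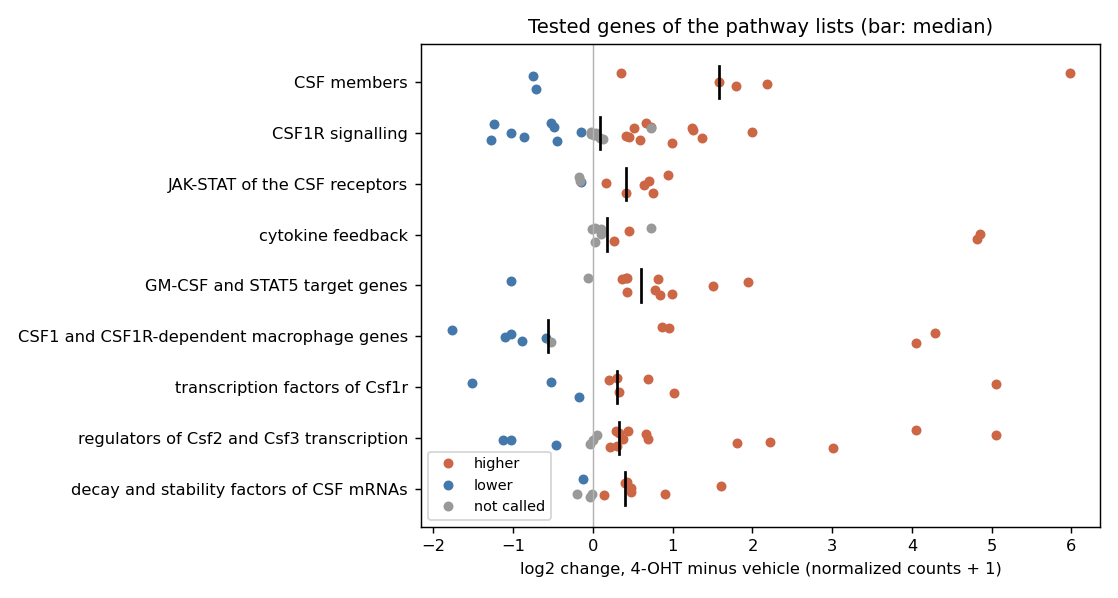
Log2 change, 4-OHT minus vehicle, of each tested gene in the member list and 8 pathway lists, coloured orange where called higher, blue where called lower and grey where not called, with the list median as a black bar. Cytokine feedback holds a pair of points at 4.85 and 4.82, Socs3 and Cish, far from a median of 0.18, and the CSF1 and CSF1R-dependent genes have the lowest median, -0.56.

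The summed level of macrophage markers was high in both groups, but not every marker was abundant. Aif1 had 36 vehicle reads and 23 reads with 4-OHT and was not called. Of 12 macrophage markers 11 were tested, with 6 higher, 3 lower and 2 not called, against 3 higher and 4 lower under total scaling, and the summed level of the list was 111684 to 118469 normalized counts in vehicle and 91604 to 117511 with 4-OHT. Lyz2 (lysozyme), the largest part of that sum, fell by 0.66 on the log2 scale, from 67465 ± 2153 to 42932 ± 5596. Itgam and Fcgr3 rose 4.63-fold and 4.53-fold and Ptprc 1.62-fold, Adgre1 (F4/80) fell by 0.89 on the log2 scale, and Mertk had 3 vehicle reads and 4 reads with 4-OHT. Of 13 neutrophil markers, which matter because neutrophils carry CSF3R, 5 were at 0 reads throughout (S100a9, Ly6g, Ngp, Camp and Retnlg), and the summed level was 50.7 to 66.3 in vehicle and 141 to 146 with 4-OHT, where Csf3r was lower. In that list S100a8 rose from 4 to 121 reads and Cebpe by 1.62-fold, the second not called under total scaling. Most of the sum was Cebpe (means of 51.9 in vehicle and 84.0 with 4-OHT) and, with 4-OHT, S100a8 (mean of 45.2). Fibroblast markers summed to 3.60 to 6.92 in vehicle and 36.2 to 45.9 with 4-OHT, and 3 of 9 (Col3a1, Lum and Thy1) were at 0. Fap, with 3 vehicle reads and 91 reads with 4-OHT, made up most of the 4-OHT sum but not of the vehicle sum. Dendritic cell markers summed to 3407 to 3589 in vehicle and 2401 to 3348 with 4-OHT. Most of this was Cd74 (means of 2376 and 2366) and Itgax (1108 and 479). Siglech and Batf3 were at 0, and Flt3, Ccr7, Clec9a and Cd209a had at most 3 reads in either group. Of 6 tested, 3 were higher (H2-Aa, H2-Ab1 and Xcr1), 1 lower (Itgax) and 2 not called. All 3 higher ones, with 2, 10 and 5 vehicle reads, reached the low-count filter only through their 4-OHT libraries, as did S100a8 and Fap, so these counts lean towards higher calls. Lymphocyte markers, of which 4 of 10 were at 0, summed to at most 6.49 normalized counts in any sample. The part of these genes in the changes of the members was not tested. Esr1, which matches a part of the construct, was not called (limma adjusted p = 0.282). How reads of the construct itself were assigned is not given in the sources used here.

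The genes most like the extremes of the family were sought by the distance over the 6 log2 values among 10612 tested named genes. Nearest to Csf3 were Smtn, Spx and Epha2, at distances of 0.50, 1.05 and 1.21. Smtn, which encodes the cytoskeletal protein smoothelin, went from 11.8 ± 1.03 to 701 ± 55.6 normalized counts. Nearest to Csf3r were Olfr111, Polr2l and Lbhd1, at 0.46, 0.52 and 0.53, all with means between 35.7 and 41.9 normalized counts in vehicle and between 20.2 and 24.2 with 4-OHT. Csf3r was taken for its change of -0.76, the lowest of the tested members, but Csf1r at -0.71 was within its SE, and without vehicle replicate C the order turned, with Csf3r at -0.58 and Csf1r at -0.74.

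**Figure D5:**
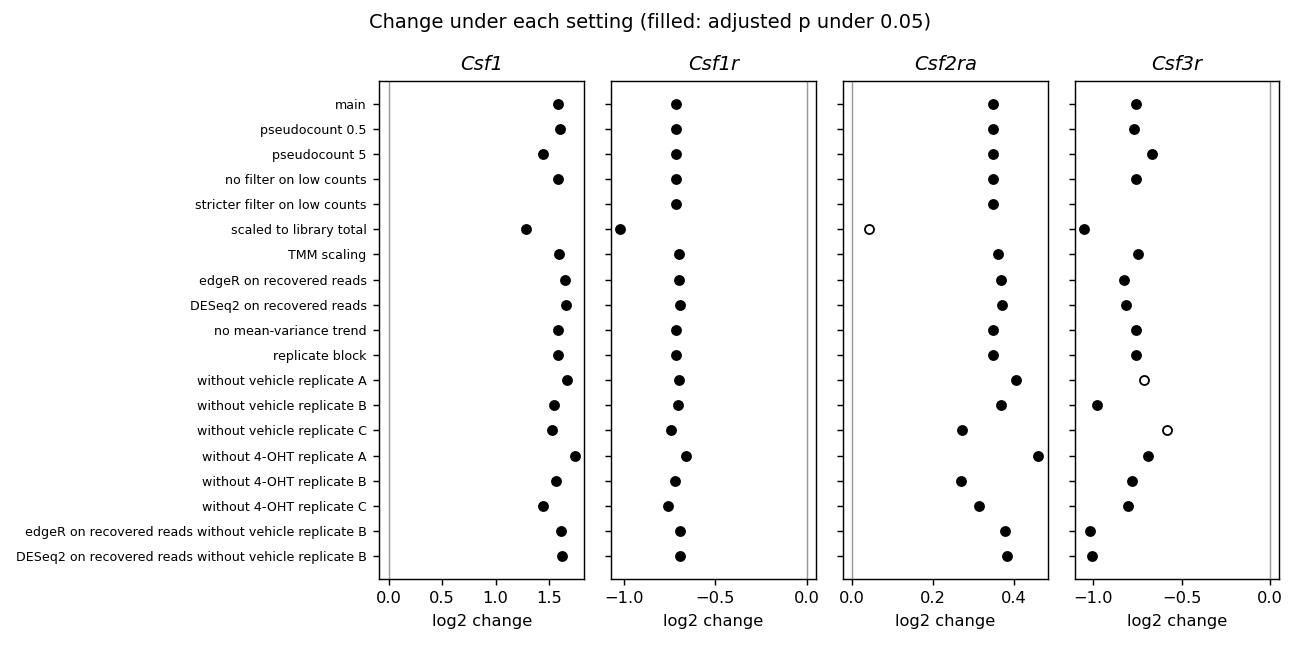
Log2 change of Csf1, Csf1r, Csf2ra and Csf3r, 4-OHT minus vehicle, under each setting, filled where the adjusted p was under 0.05 and open where not; each panel has its own axis and Csf1 and Csf3r have no point under the stricter filter. Csf2ra is open under scaling to the library total, at 0.042, and Csf3r without vehicle replicate A, at -0.71, or vehicle replicate C, at -0.58.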

How the data were processed

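mRNA libraries were made from 1000 ng of total RNA per sample with 9 PCR cycles, per the labels' protocols. Per the submitters' processing notes the tools were bcl2fastq 2.20, Trimmomatic 0.35, STAR 2.5.1b, RSEM and DESeq2 1.18.1, on GRCm38 and mm10. Their roles, the annotation, the use of strand and the handling of reads that match several genes are not given in the sources used here. Each deposited signal value equals a whole gene count over the library's size factor: in every sample column 100% of positive values were whole multiples of a single step within 1e-06. For vehicle replicate B, whose step of 0.989 is close to 1, an automatic check did not accept this, so count models were repeated without that sample. The log2 fold change, p-value and adjusted p-value of the deposited table are the authors' own and were printed only where named so. Of 50600 lines 1 held no values.

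The filter was filterByExpr of edgeR 4.0.16, applied to recovered reads with a minimum count of 10, and 11828 genes passed it. The test was limma 3.58.1 in R 4.3.3 on log2(value + 1) with a mean-variance trend and group as the only term, two-sided, with Benjamini-Hochberg adjustment over all tested genes and a threshold of 0.05. Fold changes are ratios of group means, and log2 changes of low genes are understated by the pseudocount. Intervals of read ratios are exact binomial (Clopper-Pearson) at 95%. Alternatives were other pseudocounts, filters and scalings, edgeR and DESeq2 1.42.0 on recovered reads, no trend, a block for the replicate letter, and leaving out each sample. On recovered reads edgeR's quasi-likelihood test called 3997 genes higher and 3734 lower. Recovered reads of replicate pairs differed by 3.07 to 12.2 chi-square per degree of freedom, and 0 pairs were identical. Coding sequences were aligned with Biopython 1.88, and the fitting step was tested on simulated data.

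The members and the 16 gene lists were chosen with earlier results of these data known. Genes named from a list are the up to 4 called members with the smallest p, with some exceptions. Some were marked as chosen after their values were seen, or named for reads too low to test or for not being called. Others were named beside a motif (Spi1), for a share of a sum (Lyz2 and Cd74) or for passing the filter through 1 group. The last 2 kinds were named after their values were seen. Nearest genes were ranked without unnamed gene models. Of the list genes 9 belong to several lists. Some genes that the rule names are not reported here.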

Additional observations from a re-analysis of the deposited data

How the results depend on the processing

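No log2 change of a member reversed under any alternative run. Scaling to the library total moved the count of genes called higher from 3902 to 2259 and lower from 3848 to 6549, and Csf2ra to 0.042 (adjusted p = 0.650). Csf2, untested because of its few reads, was called without a filter on low counts (log2 change 2.38, limma adjusted p = 0.0011). At so few reads the pseudocount largely sets this log2 change, and the p is not to be read as support. With the stricter filter, which leaves out Csf1, Csf2 and Csf3r, 1 member was called lower. Leaving out each sample in turn gave 1 to 2 members lower and a Csf3r change between -0.98 and -0.58, which missed the threshold without vehicle replicate A or C. With a replicate block for the shared letters, 4004 genes were called higher and 3968 lower, and no call of a member changed. Deviations of same-lettered samples correlated at 0.109, 0.0363 and 0.12 for A, B and C, too weak in B to take the letters as pairs, although every sample correlated best with its own letter, a hint from the data and not the design. Csf1, Csf2, Csf3 and Csf3r rest on few reads in at least 1 group, which limits the size of their folds. The count models without vehicle replicate B were added after the data were seen and changed no call.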

Other observations

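Neighbouring genes, listed by the deposited coordinates within 100 kb of each member, a window chosen after the data were seen, differed in direction from member to member. Around Csf3 all 5 tested neighbours were called higher, where 33.0% of all tested genes were. Med24, a Mediator subunit gene that ends 0.96 kb from Csf3, changed by 0.93 on the log2 scale, from 552 ± 21.5 to 1051 ± 28.2 normalized counts. Psmd3, a proteasome subunit gene 5.28 kb away, changed by 0.18, or -0.13 when scaled to the library total. The nuclear receptor genes Thra and Nr1d1, 37.0 and 64.3 kb away, changed by 1.90 and 2.19, and Msl1 by 0.46. When scaled to the library total, Thra, Nr1d1, Msl1 and Med24 changed by 1.60, 1.89, 0.15 and 0.62. None of the 7 genes near Csf2 had enough reads to be tested.

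Around the beta chain genes the other tested neighbours moved the other way. Ncf4, an NADPH oxidase subunit gene 19.9 kb from Csf2rb2, fell by 0.65 on the log2 scale, from 1766 ± 21.6 to 1126 ± 26.6 normalized counts. Mpst and Kctd17, 55.7 and 77.6 kb from Csf2rb, fell by 0.59 and 0.76. Near Csf1r, which was lower, Slc26a2 changed by 0.37, or 0.06 under total scaling, and Pdgfrb, which encodes a related receptor tyrosine kinase 20.5 kb away, had 7 vehicle reads and 5 reads with 4-OHT. Mrps15, 2.49 kb from Csf3r, changed by -0.44 and Stk40, 59.5 kb away, by 1.55, while Oscp1 and Lsm10 were not called. Ahcyl1, the only tested neighbour of Csf1, changed by -0.24.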
